A study of Mus musculus with 8 samples.

Results

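The messenger RNAs of the tumour suppressor p53 and of 9 genes known as its direct targets or partners were measured in Ba/F3 cells. The 10 genes are Trp53, Mdm2, Ccng1, Trp53inp1, Gadd45a, Phlda3, Perp, Aen, Pmaip1 and Btg2. They were chosen by the gene name that the array files give each probe. They are 10 of 21182 genes named on the arrays, with 17 of 41174 probes. A probe was kept where both arrays of some group read it well above background, which held for 15 of the 17, from 8 genes. The single probes of Perp and Pmaip1 passed this test on no array. Ba/F3 is a mouse pro-B cell line that needs the cytokine IL3. The cells expressed either wild type FLT3, a receptor tyrosine kinase of blood progenitors, or FLT3/ITD, a form with an internal tandem duplication that signals without its ligand. All cells were maintained with 0.1 ng/ml mouse IL3 and 10% serum, and were then kept for 4 h without either, in medium with 0.5% albumin. The 4 groups of 2 arrays were wild type FLT3 and FLT3/ITD cells, each without and with 100 ng/ml of Cxcl12, a chemokine that acts through Cxcr4. The arrays lay on 2 slides, called set 1 and set 2, with every group once on each. FLT3/ITD cells are labelled N51 in set 1 and N78 in set 2, so the kind of duplication and the set cannot be told apart. The place on the slide was the same for a group on both slides, so group and place cannot be told apart either. Nothing in the labels says that the 2 arrays of a group came from separate cultures, and p-values then measure only the spread between these arrays.

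p53 is a transcription factor that is held at a low level by the ubiquitin ligase Mdm2 and accumulates after DNA damage and other stress. It then switches on genes that halt the cell cycle, repair DNA or kill the cell, together with Mdm2 and others that limit it again. Loss of growth factor is among the stresses under which such genes have been studied in haematopoietic cells, and several of them also respond to other transcription factors.

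A level is given as the log2 intensity of a probe minus the 75th percentile of its array, so 0 stands for that percentile. Levels of different probes are not comparable, since probes differ in how well they bind. A difference is a log2 difference from limma with the array set as a block, given with its standard error (SE). A probe passed a comparison at a Benjamini-Hochberg adjusted p under 0.05 over all 21126 kept probes. The words "rose" and "fell" are used of those alone.

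Probes of a gene are numbered from its 3′ end, where the labelling reaction starts. Probe 1 of Trp53 and probe 2 of Mdm2 were each printed as 10 spots per array. Their spots show the spread within an array, not that between arrays. The spots of Mdm2 probe 2 had SDs between 0.06 and 0.11 (log2) on every array. Those of Trp53 probe 1 had SDs between 0.04 and 0.09 on 7 arrays and 0.25 on the wild type array of set 1. The 60-base probes below are those to which the results return, shown because the probes of a gene did not all report alike. Each has at least 1 reading frame without a stop codon.
Trp53 probe 1: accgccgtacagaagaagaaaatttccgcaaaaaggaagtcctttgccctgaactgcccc
Mdm2 probe 2: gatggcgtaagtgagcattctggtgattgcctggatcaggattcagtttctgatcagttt
Aen probe 2: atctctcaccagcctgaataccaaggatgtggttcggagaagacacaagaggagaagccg
Btg2 probe 3: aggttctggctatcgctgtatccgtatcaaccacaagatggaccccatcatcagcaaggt
By the mm9 coordinates in the set 2 files, they lie at chr11:69403134-69403193 (plus strand), chr10:117129725-117129784 (minus strand), chr7:86047218-86047277 (plus strand) and chr1:135974181-135974240 (minus strand). Probe 2 of Trp53inp1 (chr4:11098180-11098239, plus strand) opens with 2 tandem copies of a 26-base unit.
Trp53inp1 probe 2, repeat unit: agtactaatacttaccacagcaggcg

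The 2 sets differed for some probes by far more than the groups did. Btg2 probe 2, which lies 1822 bases upstream of probe 1 in the genome, averaged -2.90 in set 1 and 0.94 in set 2. Btg2 probe 3, at 2087 bases upstream, averaged -4.29 and -0.50, whereas probe 1 averaged -0.90 and -0.01. Trp53inp1 probe 2 averaged -4.12 and 0.33, and its probe 1 1.86 and 1.62. The upstream probes of Trp53 and Mdm2 were higher in set 2 by 1.75 and 1.57, and their probes 1 differed by -0.05 and 0.13. In each of these 4 genes the upstream probe was the one with the larger gap. Ccng1 did not follow this order (-0.54 for probe 1 and -0.04 for probe 2), and in Aen both probes were higher in set 2, by 1.68 and 1.89. Over all kept probes the median gap was 0.08, with 5% below -1.47 and 5% above 2.07. The set is a term of the fit, so such gaps do not enter a difference between groups, but the low set 1 levels put some readings near background. The reason for these gaps was not tested.

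**Figure D1:**
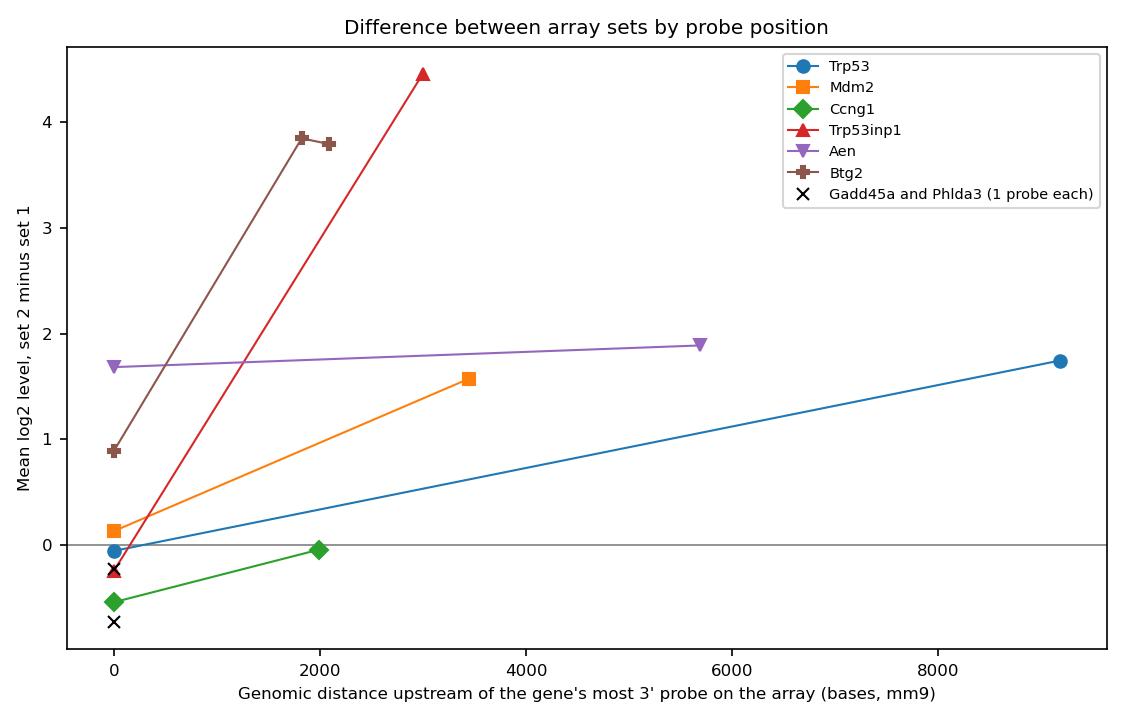
Mean log2 level in set 2 minus that in set 1 (4 arrays each, vertical axis) against the genomic distance of a probe upstream of the most 3′ probe of its gene (bases, mm9), for the 15 probes above background. Upstream probes of Btg2 and Trp53inp1 lie 3.79 to 4.45 above 0, and the most 3′ probes of genes other than Aen and Btg2 lie between -0.72 and 0.13.

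None of the 15 probes passed any of the 7 comparisons. The share of all kept probes that passed was 6.03% for FLT3/ITD against wild type averaged over both conditions (3.25% higher and 2.77% lower), 0.350% for that difference without Cxcl12 and 0.729% with Cxcl12. It was 0.213% for Cxcl12 averaged over both kinds of cell. No kept probe passed for Cxcl12 in wild type cells, for Cxcl12 in FLT3/ITD cells or for the interaction between both factors in limma, while 6.87%, 10.4% and 1.42% of them had an unadjusted p under 0.05 (1451, 2201 and 301 probes). Among the 15 probes, an unadjusted p under 0.05 was found for 4 in the FLT3/ITD average, against 26.5% of all kept probes. Aen probe 2 is 1 of the 4, and was kept only through a group in which it is high. For the Cxcl12 average an unadjusted p under 0.05 was found for 8, all lower with Cxcl12, against 15.0% of all kept probes in either direction and 7.49% in that one. The 8 became 3 with normexp background correction, 1 without the set as block, 3 without the set 2 array of wild type cells with Cxcl12, and 5 without the wild type array of set 2 or the FLT3/ITD array of set 1. The 4 of the FLT3/ITD average became 2 with normexp or without the FLT3/ITD array of set 2, and 0 without the block.

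**Figure D2:**
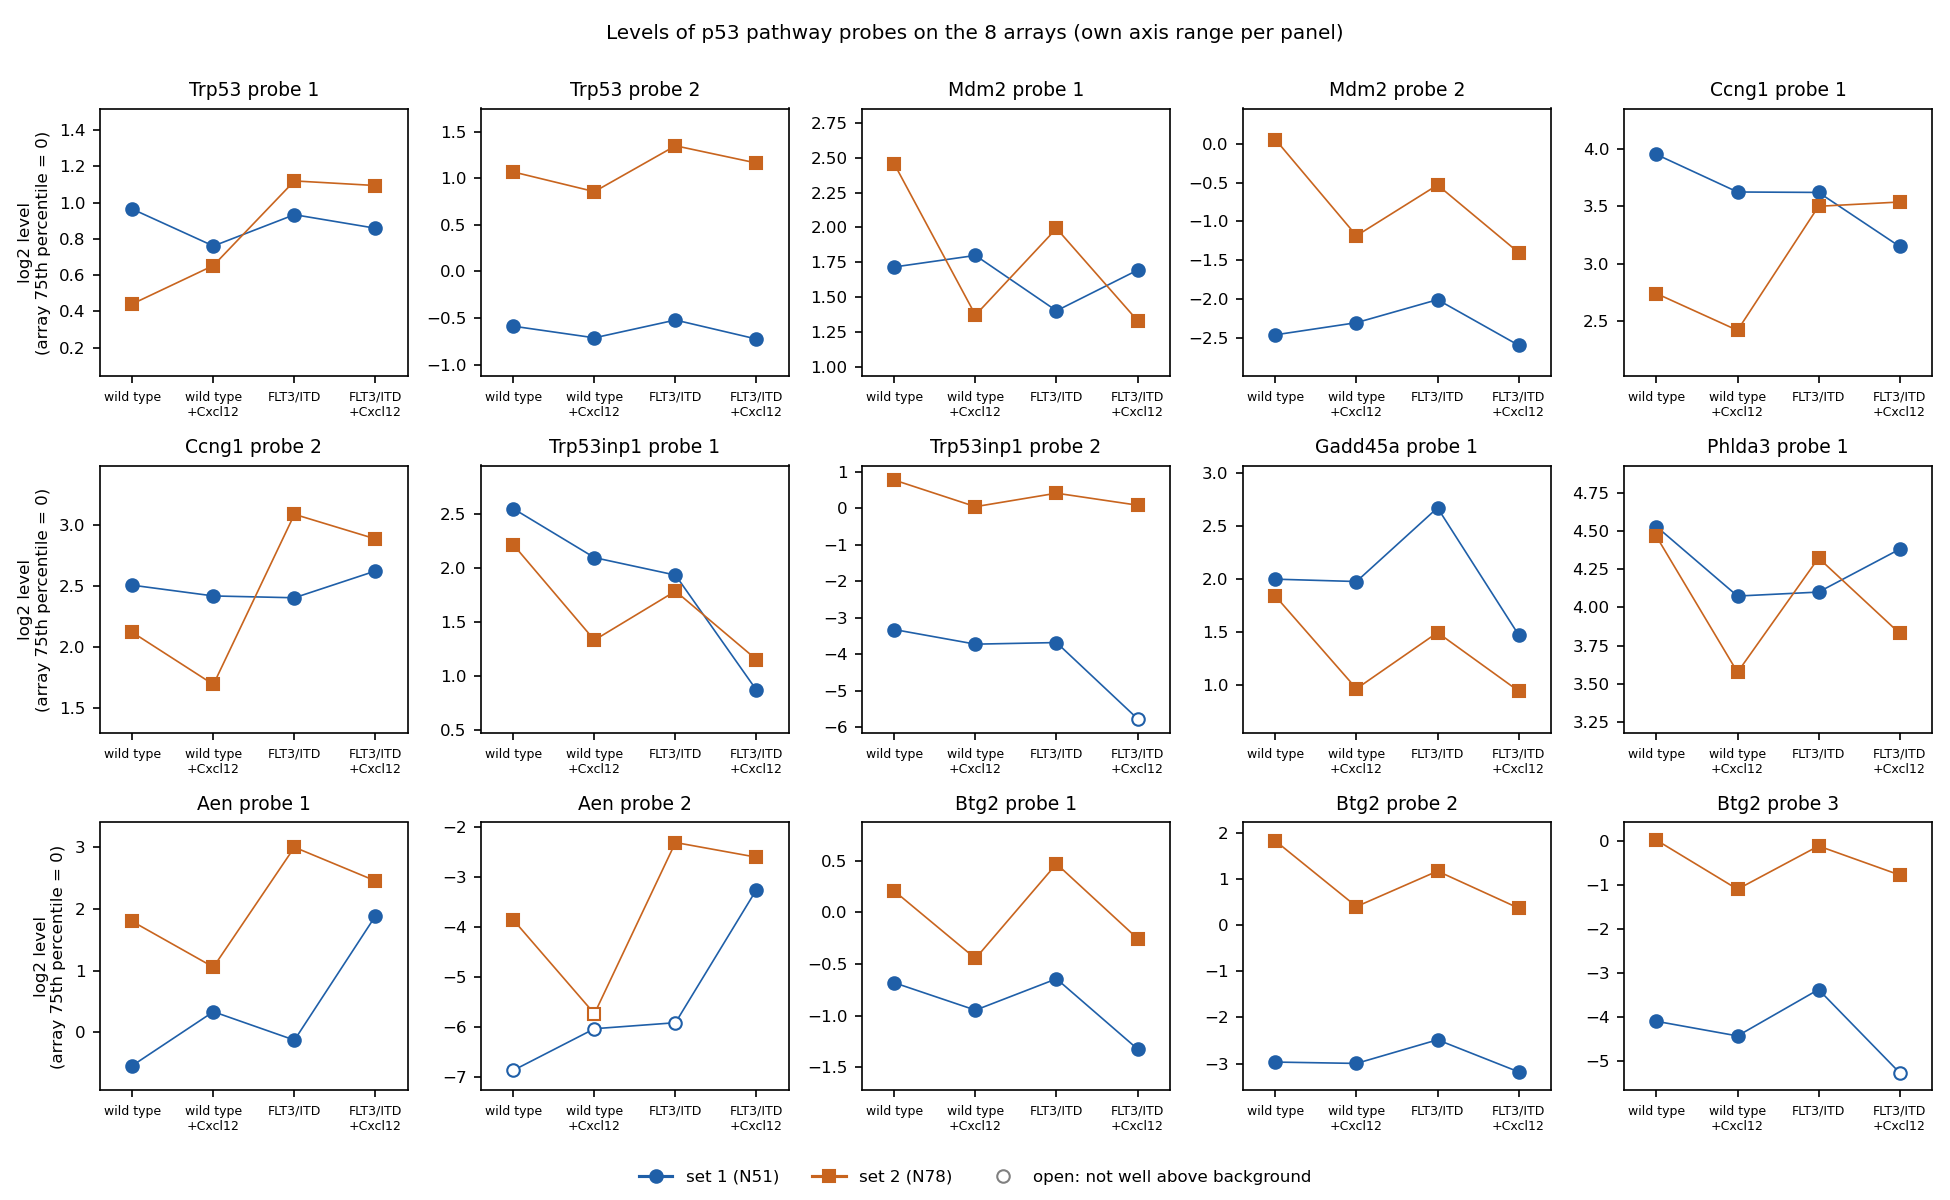
Log2 level (75th percentile of the array at 0, vertical axis) of each of the 15 probes above background in the 4 groups, with the arrays of set 1 as circles and those of set 2 as squares, joined within a set. Open symbols are readings not well above background, and each panel has its own axis range. Both Aen probes are higher in FLT3/ITD than in wild type in each pair of arrays of the same set and treatment, and the 3 Btg2 probes are lower with Cxcl12 in each pair of arrays.

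Trp53 itself, the gene of p53, differed little between the groups. These are levels in bulk RNA, where fewer cells of a type and less RNA per cell cannot be told apart. In set 1, probe 1 read 0.96 in wild type cells, 0.76 with Cxcl12, 0.93 in FLT3/ITD cells and 0.86 with Cxcl12. In set 2 the readings in the same order were 0.44, 0.65, 1.12 and 1.09. The FLT3/ITD arrays were thus above both wild type arrays in set 2, and lay among them in set 1. FLT3/ITD and wild type cells differed on average by 0.30 (SE 0.18, limma adjusted p = 0.322), with a 95% interval from -0.11 to 0.70, and was 0.03 in set 1 and 0.56 in set 2. Probe 2 gave 0.16 (SE 0.16). The average Cxcl12 difference was -0.02 (SE 0.18, 95% interval -0.43 to 0.38) by probe 1 and -0.18 (SE 0.16) by probe 2. Probe 1 took the opposite sign when any 1 of 3 arrays was left out.

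By a fixed measure of likeness, the genes nearest to Trp53 over the 8 arrays were Rpl15 and Rpl7, which encode ribosomal proteins, and Asl, the argininosuccinate lyase. Their levels, centred within each set, differed from those of Trp53 by 0.03 on average (log2), among 10738 genes whose median distance was 0.26.

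Mdm2, the ligase that marks p53 for destruction and a target of p53 in turn, was read by 2 probes. In set 1, probe 1 read 1.72 in wild type cells, 1.80 with Cxcl12, 1.40 in FLT3/ITD cells and 1.69 with Cxcl12. In set 2 it read 2.45, 1.37, 1.99 and 1.33. Both arrays with Cxcl12 lay below both arrays without it in set 2, and the order was the opposite within each kind of cell in set 1. Probe 2 read -2.46, -2.30, -2.01 and -2.59 in set 1 and 0.05, -1.18, -0.53 and -1.40 in set 2. The average Cxcl12 difference was -0.34 (SE 0.23, limma adjusted p = 0.526) by probe 1 and -0.63 (SE 0.25, adjusted p = 0.279) by probe 2. By set, probe 1 gave 0.19 and -0.87, and probe 2 -0.22 and -1.05. With FLT3/ITD the averages were -0.23 (SE 0.23) and -0.16 (SE 0.25). The genes nearest to Mdm2 were Ppp1r12b, which encodes a myosin phosphatase subunit, Zfp329, a zinc finger gene, and Dynlt1f, a dynein light chain gene, at mean distances of 0.09 to 0.10, against a median of 0.36 over all genes compared.

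Ccng1 encodes cyclin G1, which recruits a phosphatase to Mdm2 and is among the most regular p53 targets. Its probe 1 read 3.95, 3.62, 3.62 and 3.15 in set 1 (wild type, wild type with Cxcl12, FLT3/ITD, FLT3/ITD with Cxcl12) and 2.74, 2.42, 3.50 and 3.54 in set 2. Probe 2 read 2.51, 2.42, 2.41 and 2.63 in set 1 and 2.12, 1.70, 3.09 and 2.89 in set 2. In set 2, where the FLT3/ITD cells are N78, both FLT3/ITD arrays lay above both wild type arrays by both probes. In set 1, N51, they did not. By set, the FLT3/ITD difference was -0.40 and 0.94 for probe 1 and 0.05 and 1.08 for probe 2. Over both sets it was 0.27 (SE 0.27, limma adjusted p = 0.556) and 0.57 (SE 0.23, adjusted p = 0.157). With Cxcl12 the averages were -0.27 (SE 0.27) and -0.12 (SE 0.23). Nearest to Ccng1 were Eed, a Polycomb subunit gene, Elf1, an ETS factor gene, and Ranbp17, of the importin family, at mean distances of 0.07 to 0.08, against a median of 0.39.

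Gadd45a, a growth arrest gene whose product binds PCNA and stress kinases, was lower with Cxcl12 in each of the 4 pairs of arrays. In set 1 it read 2.001 in wild type cells and 1.98 with Cxcl12, and 2.68 in FLT3/ITD cells and 1.48 with Cxcl12. In set 2 the same pairs read 1.84 and 0.97, and 1.496 and 0.94. Within each set both arrays with Cxcl12 were below both without it, although the first pair differed by 0.02 only. The average Cxcl12 difference was -0.66 (SE 0.20, 95% interval -1.11 to -0.22, limma adjusted p = 0.171), and was -0.61 in set 1 and -0.71 in set 2. It was -0.45 (SE 0.28) in wild type cells and -0.88 (SE 0.28) in FLT3/ITD cells, and neither passed. The interaction, the difference between both, was -0.43 (SE 0.39). For FLT3/ITD it averaged -0.05 (SE 0.20), with opposite signs in the sets.

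Btg2, a p53 target that slows proliferation and shortens mRNA tails, was lower with Cxcl12 in all 4 pairs by all 3 of its probes. Probe 1 read -0.68 and -0.95 in wild type cells without and with Cxcl12 and -0.64 and -1.32 in FLT3/ITD cells in set 1. In set 2 these pairs were 0.21 and -0.45, and 0.47 and -0.25. Probe 2 read -2.97 and -2.99, then -2.48 and -3.18, in set 1, and 1.82 and 0.40, then 1.17 and 0.37, in set 2. Probe 3 read -4.10 and -4.43, then -3.37 and -5.26, in set 1, and 0.01 and -1.10, then -0.12 and -0.78, in set 2. The reading of -5.26 was not well above background. With each probe, both arrays with Cxcl12 lay below both without it in each set. For probe 2, however, the wild type pair of set 1 differed by -0.029 only. The average Cxcl12 difference was -0.58 (SE 0.17, limma adjusted p = 0.176), -0.74 (SE 0.24, adjusted p = 0.206) and -0.996 (SE 0.25, adjusted p = 0.124) for probes 1 to 3. The 95% interval of the last ran from -1.56 to -0.43. The 3 probes read the same RNA and are not separate evidence. For FLT3/ITD the probes gave 0.03 (SE 0.17), -0.10 (SE 0.24) and 0.02 (SE 0.25), with 95% intervals that all lay between -0.64 and 0.59.

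Trp53inp1, whose nuclear product promotes p53 phosphorylation and also takes part in autophagy, read lower both with Cxcl12 and in FLT3/ITD cells, and neither difference passed. Probe 1 read 2.55 and 2.10 in wild type cells without and with Cxcl12 in set 1, and 1.93 and 0.87 in FLT3/ITD cells. In set 2 it read 2.22 and 1.33, and 1.79 and 1.15. The order of the groups was thus the same in both sets at its ends, with wild type cells highest and FLT3/ITD cells with Cxcl12 lowest. The average Cxcl12 difference was -0.76 (SE 0.19, 95% interval -1.19 to -0.33, limma adjusted p = 0.124), and was -0.76 in each set. The average FLT3/ITD difference was -0.61 (SE 0.19, 95% interval -1.04 to -0.18, adjusted p = 0.0857), and was -0.92 in set 1 and -0.30 in set 2.

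Probe 2 of Trp53inp1, the one with the repeat, read -3.32, -3.72, -3.68 and -5.76 in set 1 and 0.77, 0.04, 0.41 and 0.09 in set 2, in the order wild type, wild type with Cxcl12, FLT3/ITD and FLT3/ITD with Cxcl12. The reading of -5.76 was not well above background. It gave -0.89 (SE 0.32, adjusted p = 0.248) for Cxcl12 and -0.68 (SE 0.32, adjusted p = 0.213) for FLT3/ITD. Without the FLT3/ITD array with Cxcl12 of set 2, the FLT3/ITD difference passed for both probes, at -0.79 (limma adjusted p = 0.0485) and -1.14 (adjusted p = 0.023). The Cxcl12 difference of probe 2 also passed then, at -1.35 (adjusted p = 0.0342). That fit leaves the low set 1 reading as the only array of its group. Without that set 1 array instead, the FLT3/ITD difference was -0.44 (adjusted p = 0.183) for probe 1 and -0.21 (adjusted p = 0.516) for probe 2, and the Cxcl12 difference of probe 2 was -0.42 (adjusted p = 0.452).

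Phlda3, whose short product competes with Akt for membrane lipids, differed little between kinds of cell. It read 4.53 and 4.07 in wild type cells without and with Cxcl12 in set 1, and 4.10 and 4.38 in FLT3/ITD cells. In set 2 it read 4.46 and 3.57, and 4.32 and 3.83. Cxcl12 arrays were lower in 3 of 4 pairs. The average Cxcl12 difference was -0.39 (SE 0.17, limma adjusted p = 0.318), -0.67 (SE 0.24) in wild type and -0.11 (SE 0.24) in FLT3/ITD cells. The average FLT3/ITD difference was -0.002 (SE 0.17, 95% interval -0.38 to 0.37).

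Aen, an exonuclease that p53 induces and that degrades DNA and RNA in dying cells, had the largest differences with FLT3/ITD among the 15 probes. Probe 1 read -0.53 in wild type and -0.12 in FLT3/ITD cells without Cxcl12, and 0.34 and 1.88 with Cxcl12, in set 1. In set 2 it read 1.79 and 2.99 without, and 1.06 and 2.45 with Cxcl12. FLT3/ITD was higher in each of the 4 pairs. The average FLT3/ITD difference was 1.14 (SE 0.39, 95% interval 0.27 to 2.01, limma adjusted p = 0.105), and was 0.98 in set 1 and 1.30 in set 2. This probe passed when the arrays were scaled to their medians (1.26, adjusted p = 0.0426), in the authors' normalized tables (1.26, adjusted p = 0.0457), with normexp background correction (1.26, adjusted p = 0.00129) and without the FLT3/ITD array of set 1 (1.62, adjusted p = 0.0339). It was 0.66 (adjusted p = 0.424) without the FLT3/ITD array of set 2, 0.77 (adjusted p = 0.246) without the FLT3/ITD array with Cxcl12 of set 1, and 0.82 (adjusted p = 0.373) without the wild type array with Cxcl12 of set 2.

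Probe 2 of Aen was dim. Its intensities in set 1 were 8.02 in wild type and 17.7 in FLT3/ITD cells, and 16.5 and 116 with Cxcl12. In set 2 they were 25.2 and 108 without, and 9.14 and 98.3 with Cxcl12. It was well above background on 4 arrays, 3 of them FLT3/ITD arrays, and on neither wild type array with Cxcl12. FLT3/ITD cells with Cxcl12 were the 1 group with both arrays above background, so the probe was kept through a group in which it is high. Its FLT3/ITD differences and their p-values are therefore given as a description, not as support. With Cxcl12, the FLT3/ITD arrays averaged a level of -2.93 and the wild type arrays -5.89. The measured difference with Cxcl12 was 2.95 (SE 0.77, limma adjusted p = 0.111), and with normexp correction it was -0.24. Against the lowest signals called above background, the measured values put FLT3/ITD at least 3.94-fold higher. This bound takes for each dim array the higher of that lowest signal and its own. It has no p-value and does not cover the normexp values. The average FLT3/ITD difference was 2.10 (SE 0.54, adjusted p = 0.0542). Leaving out 1 array moved it between 1.53 (adjusted p = 0.266, without the FLT3/ITD array of set 2) and 2.67 (adjusted p = 0.031, without that of set 1). With normexp correction it was 0.07 (adjusted p = 0.953).

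With Cxcl12 the Aen probes went opposite ways in the sets. By probe 1 the average difference was 1.44 in set 1 and -0.64 in set 2, and by probe 2 it was 1.75 and -1.08. Over both sets this gave 0.40 (SE 0.39) and 0.33 (SE 0.54). The files of set 1 give both Aen probes the older symbol Isg20l1, and 1 further probe bears that symbol in set 1 only. Its FLT3/ITD difference was 1.02 (SE 0.38, limma adjusted p = 0.13).

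Perp, a membrane protein gene, and Pmaip1, which encodes the death protein Noxa, gave no usable reading. Perp lay between -7.73 and -6.01 on the 8 arrays and Pmaip1 between -7.85 and -6.56, all not well above background.

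**Figure D3:**
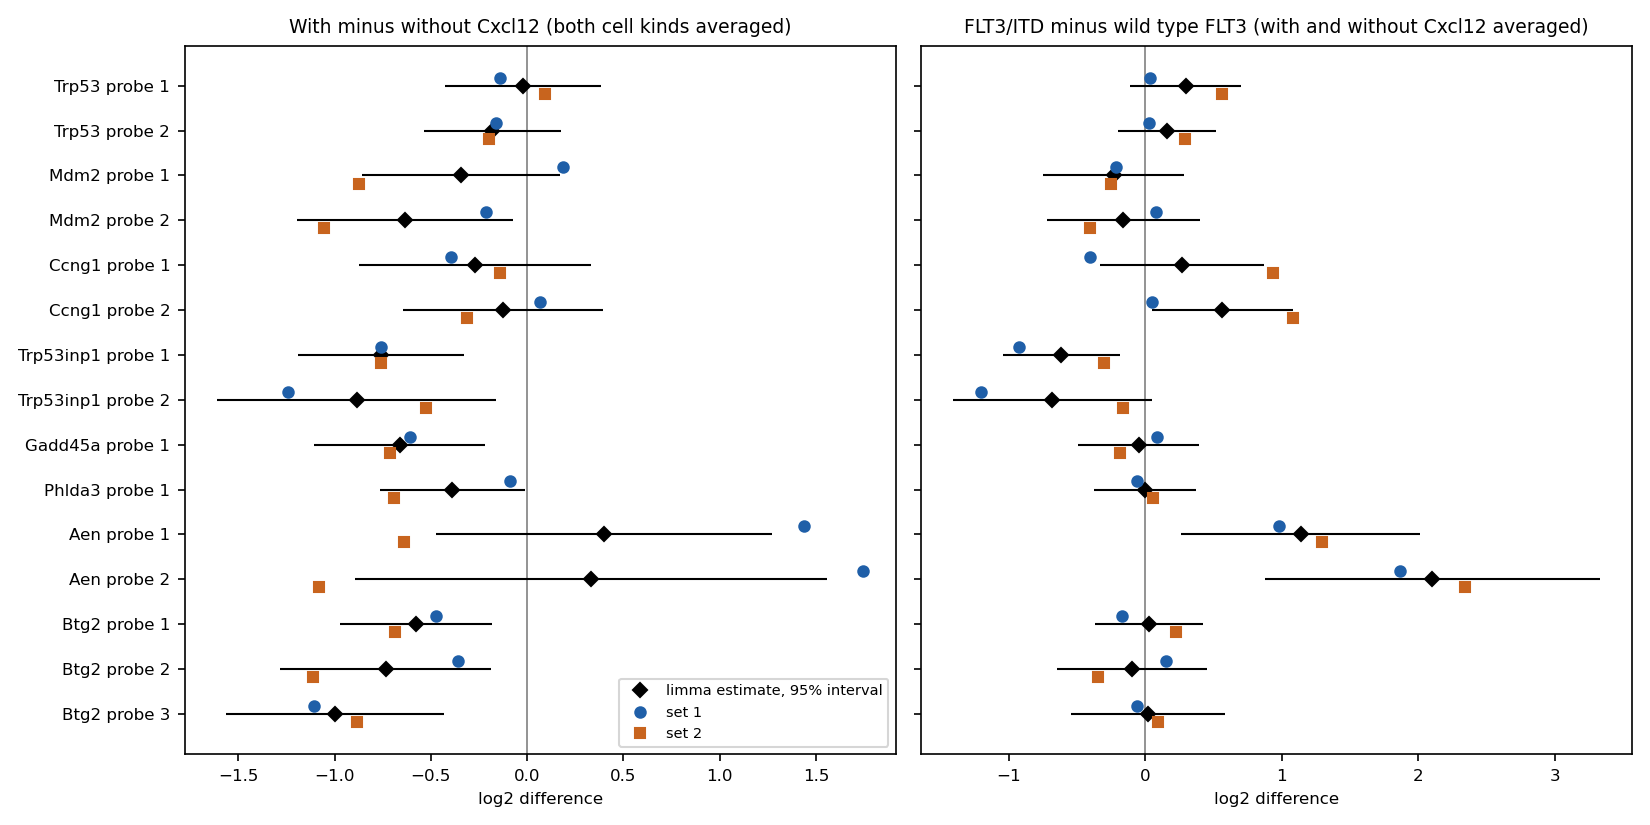
Log2 differences of the 15 probes with Cxcl12 (left) and with FLT3/ITD (right), each averaged over the other factor. Diamonds with bars are limma estimates with 95% intervals, circles are set 1 alone and squares set 2 alone. With Cxcl12, 13 of 15 estimates are below 0, and with FLT3/ITD both Aen estimates are above 1.

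Across the 15 probes, 13 estimates for Cxcl12 were below 0 and the median was -0.39, beside -0.0047 over all kept probes. The estimates ran from -0.996 for Btg2 probe 3 to 0.40 for Aen probe 1. Of the 15, 10 were lower with Cxcl12 in both sets, against 31.4% of all kept probes, and none was higher in both, against 31.6%. In 5 probes of 3 genes, Trp53inp1 probe 2, Gadd45a and the 3 of Btg2, both arrays with Cxcl12 lay below both without it in each set, against 5.37% of all kept probes. Probes of a gene share their RNA, so these counts rest on 8 genes. By kind of cell, 2 probes had an unadjusted p under 0.05 in wild type cells (Trp53inp1 probe 1 at -0.67, SE 0.27, and Phlda3), and 5 in FLT3/ITD cells, all lower. The 5 were both Trp53inp1 probes (-0.85, SE 0.27, and -1.21, SE 0.45), Gadd45a, and Btg2 probes 1 and 3 (-0.70, SE 0.25, and -1.27, SE 0.35). The corresponding shares of all kept probes were 4.05% and 4.75%. The 2 became 4 with normexp, and 0 with median scaling, in the authors' tables or without the block. The 5 became 0 with normexp, without the block or without the FLT3/ITD array with Cxcl12 of set 1, and 2 without the FLT3/ITD array of set 1. The interaction estimates of the 15 probes lay between -0.64 for Trp53inp1 probe 2 and 1.70 for Aen probe 2 (SE 1.08), with an adjusted p of 1 for each.

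For FLT3/ITD the 15 estimates had a median of 0.02, beside -0.02 over all kept probes, and 8 were positive and 7 negative. Of the 4 with an unadjusted p under 0.05, 3 were higher (both Aen probes and Ccng1 probe 2) and 1 lower (Trp53inp1 probe 1). Aen probe 2 was kept only through a group in which it is high, so its p is no support. Without Cxcl12 no probe had an unadjusted p under 0.05, where 11.8% of all kept probes did. With Cxcl12 3 did, against 18.5%: Trp53inp1 probe 1 at -0.70 (SE 0.27) and the Aen probes at 1.47 (SE 0.55) and 2.95 (SE 0.77), the second of them kept through the group in which it is high. The 3 became 1 without the FLT3/ITD array with Cxcl12 of set 1 and 0 without the block.

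Other genes of the pathway were counted from 3 lists, with the brightest kept probe for each gene. The first held 16 regulators and partners of p53, among them the kinases Atm, Atr, Chek1 and Chek2, the inhibitor Mdm4 and the acetyltransferase Ep300. Of the 15 that were measured, none passed any comparison in limma. Their median difference was -0.09 with FLT3/ITD and 0.10 with Cxcl12, beside 0.00 and 0.02 over all 12079 genes. Ep300 had the lowest adjusted p with FLT3/ITD, at -0.67 (SE 0.17, adjusted p = 0.0535), and Atr that with Cxcl12, at -0.64 (SE 0.16, adjusted p = 0.12). Trp63, a p53 homologue, read above background on none of the arrays.

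The second list held 31 further p53 targets, of which 25 were measured. With FLT3/ITD 2 rose and none fell, beside 3.25% and 2.77% of all kept probes, and the median was 0.12. These shares count every probe. In a fit with 1 probe per gene, 950 of 12079 genes passed in either direction. Ak1, an adenylate kinase, read -2.95 and -3.30 in wild type cells without and with Cxcl12 and -2.22 and -2.65 in FLT3/ITD cells in set 1. In set 2 it read -1.18 and -1.57, and 1.05 and 0.44. It rose by 1.41 (SE 0.29, limma adjusted p = 0.0297), and the FLT3/ITD arrays were above both wild type arrays in each set. It no longer passed when any 1 of the 4 arrays of set 2 was left out (adjusted p 0.0622 to 0.168), nor with normexp correction (0.83, adjusted p = 0.104), with no filter on dim probes (adjusted p = 0.0995), without the intensity trend (adjusted p = 0.0552) or without the set as block (adjusted p = 1). Rps27l, a ribosomal protein gene that p53 induces, rose by 0.53 (SE 0.13, adjusted p = 0.0471), by 0.38 in set 1 and 0.67 in set 2. It passed without the wild type or the FLT3/ITD array of set 1 and not without any 1 of the other 6 (adjusted p 0.0807 to 0.233), nor under the 4 settings that ended the call for Ak1 (adjusted p 0.111 to 1). With Cxcl12 none of the 25 passed, and the median was -0.06.

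The third list held 11 paralogs of the genes above, of which 8 were measured. With FLT3/ITD 1 fell and none rose, beside 2.77% and 3.25% of all kept probes, or 950 of 12079 genes in either direction with 1 probe per gene. Tob2, of the Btg2 family, fell by 0.98 (SE 0.24, limma adjusted p = 0.0457), by the brighter of its 2 kept probes. It passed without the FLT3/ITD array or the wild type array with Cxcl12 of set 1, and not without any 1 of the other 6 (adjusted p 0.0611 to 0.231), nor under those 4 settings or with quantile normalization (adjusted p 0.0573 to 0.952). With Cxcl12 none passed, while the median was -0.47. The 3 lowest, named after their values were seen, were Ccng2 at -1.23 (SE 0.21, adjusted p = 0.0633), Gadd45g at -1.10 (SE 0.20, adjusted p = 0.0694) and Tob1 at -1.003 (SE 0.22, adjusted p = 0.0921). The highest, and the only gene of the 8 above 0, was Trp53inp2 at 0.67 (SE 0.20, adjusted p = 0.181).

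**Figure D4:**
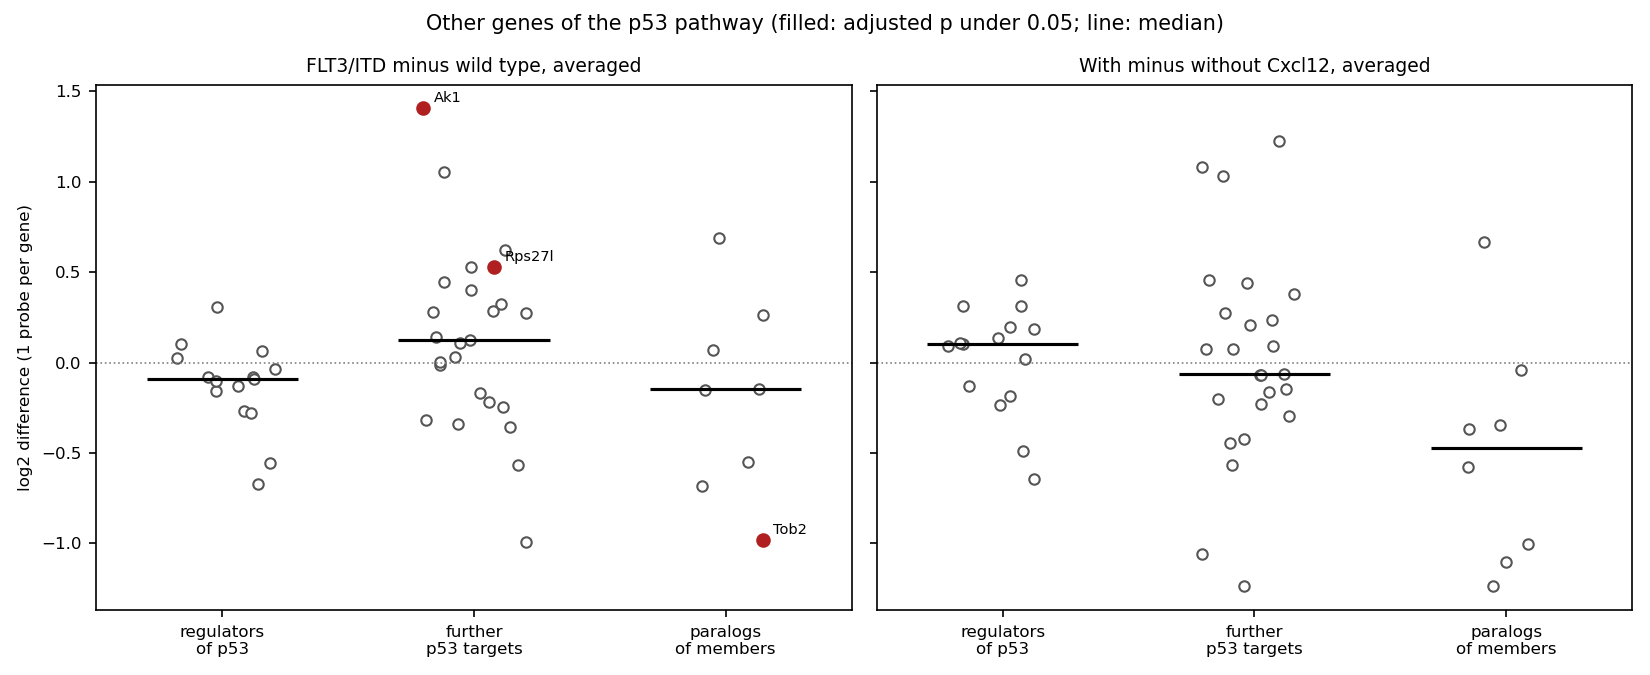
Log2 differences of the measured genes of 3 lists (1 probe per gene) with FLT3/ITD (left) and with Cxcl12 (right), each averaged over the other factor. Filled points have an adjusted p under 0.05 and lines are list medians. The filled points are Ak1 at 1.41, Rps27l at 0.53 and Tob2 at -0.98, all with FLT3/ITD.

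The stretch from 250 bases before to 50 after the start of transcription was taken from RefSeq (GRCm38.p6), matched by symbol for 7 of the 10 genes, as 8 promoters. It was searched for the p53 decamer, a motif of 10 letters that is the same on both strands and of which a full p53 response element holds a pair. The motif was found in 6 of these promoters, from 5 genes, against 8.36% of 32851 promoters of the same length. No promoter of the 7 genes held a pair of these motifs at most 13 bases apart, which 0.07% of all promoters did. The windows below are of 30 bases, on the strand of the gene, with the motif in capitals.
Trp53: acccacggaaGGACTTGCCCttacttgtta
Mdm2: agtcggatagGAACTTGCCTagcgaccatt
Ccng1: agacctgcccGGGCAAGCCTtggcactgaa
Gadd45a: ggttggctgaGGGCTAGCCCcatatctccg
Aen: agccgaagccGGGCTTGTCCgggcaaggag
The first letter of the motif stands at -75 in Trp53 (chr11:69580109-69580408, plus strand), -186 in Mdm2 (chr10:117710709-117711008, minus strand), -185 in Ccng1 (chr11:40755237-40755536, minus strand) and -40 in Gadd45a (chr6:67037358-67037657, minus strand), counted from the start site. In Aen it stands at 11 from 1 start (chr7:78895677-78895976, plus strand) and at -121 from another (chr7:78895808-78896107, plus strand). Btg2 (chr1:134079106-134079405, minus strand) and Phlda3 (chr1:135765835-135766134, plus strand) held none in this window. A match describes letters only, and says nothing of whether p53 binds there in these cells.

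Cell markers also differed between the groups. The pro-B genes Cd79a, Cd79b, Vpreb1, Ptprc, Il3ra and Csf2rb were well above background on all 8 arrays, whereas Pax5, Ebf1, Il7r, Rag1 and Igll1 were so on none. The summed level of the first 6 lay between 7.73 and 8.31 in wild type and between 7.18 and 7.63 in FLT3/ITD arrays, and Ptprc fell with FLT3/ITD by 0.55 (SE 0.13, limma adjusted p = 0.0419). Csf2rb had the highest level of the 6 on every array, so the sum mostly follows it. With FLT3/ITD it gave -0.51 (SE 0.14) and Il3ra -0.285 (SE 0.21). Cd79a, Cd79b and Vpreb1 went the other way, at 0.20 (SE 0.23), 0.25 (SE 0.20) and 0.12 (SE 0.25). The summed level of 6 of 7 mast cell and basophil markers (log2) lay between 7.27 and 7.90 in the 4 wild type arrays and between 3.48 and 5.78 in the 4 FLT3/ITD arrays, with Kit above background on none. Cma1 had the highest level of these 6 on every array, so this sum mostly follows it. With FLT3/ITD, Mcpt8, Mcpt4 and Cma1 fell (-4.40, -3.30 and -2.90, SE 0.27, 0.27 and 0.24). Cpa3, Ms4a2 and Fcer1a gave -0.78 (SE 0.40), -0.62 (SE 0.28) and -0.42 (SE 0.26), and did not pass. The summed level of 4 of 7 neutrophil markers lay between 4.84 and 6.26 in wild type and between 1.28 and 3.26 in FLT3/ITD arrays, with Elane, Ltf and S100a8 above background on none. Within that list Ctsg fell with FLT3/ITD by 4.83 (SE 0.48, limma adjusted p = 0.00128), while Prtn3 gave 0.44 (SE 0.21), S100a9 1.099 (SE 0.53) and Mpo -4.04 in set 1 and 0.59 in set 2. The mast cell and basophil sum was lower with Cxcl12 in each pair, from 7.90 to 7.75 and from 7.67 to 7.27 in wild type cells, and from 5.78 to 5.29 and from 4.39 to 3.48 in FLT3/ITD cells. None of its genes passed for Cxcl12. Cpa3, Mcpt8 and Ms4a2 gave -1.21 (SE 0.40), -1.11 (SE 0.27) and -0.82 (SE 0.28), and Cma1 -0.47 (SE 0.24). Mcpt4 gave -0.14 (SE 0.27), with 0.41 (SE 0.38) in wild type cells, and Fcer1a 0.16 (SE 0.26). The neutrophil sum was also lower with Cxcl12 in each pair, from 6.26 to 5.44 and from 5.72 to 4.84 in wild type cells, and from 2.79 to 1.88 and from 3.26 to 1.28 in FLT3/ITD cells. Of the other lists, 4 of 5 T cell markers were summed. Their level lay between -0.12 and 0.29 in wild type and between 1.24 and 2.93 in FLT3/ITD arrays. Lat had the highest level of these 4 on every array and was the 1 that rose, by 2.08 (SE 0.27). With FLT3/ITD, Cd3e, Cd3d and Cd4 gave -0.004 (SE 0.24), 0.36 (SE 0.20) and 0.13 (SE 0.28), and did not pass. The summed level of 3 of 5 monocyte markers lay between 4.17 and 5.59 in wild type and between 2.95 and 5.52 in FLT3/ITD arrays. Itgam was above background on none. Adgre1 had the highest level of these 3 on every array, so this sum mostly follows it. With FLT3/ITD, Adgre1 gave -0.68 (SE 0.26) and Cd14 -0.34 (SE 0.47), and neither passed. Lyz2 went the other way and rose by 2.57 (SE 0.21, limma adjusted p = 0.000563). The summed level of 3 of 4 erythroid markers lay between 4.27 and 4.99 in wild type and between 4.09 and 4.55 in FLT3/ITD arrays. Their part in the values of Trp53inp1, Gadd45a, Btg2 and Aen was not tested.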

How the data were processed

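The 8 total RNA samples of Ba/F3 cells were each hybridised to a 1-colour (Cy3) Agilent mouse array. The deposited intensity values are Feature Extraction output, background-subtracted and not scaled between arrays per the file headers, which name version 9.5.1.1 in set 1 and 10.7.3.1 in set 2. The authors' normalized tables, deposited with column medians of 100 in set 1 and 1 in set 2, match median-scaled arrays, and served as an alternative. Here log2 intensity minus the 75th percentile of each array (937 to 1109 in set 1, 367 to 600.0 in set 2) was used. Control and outlier spots were left out, and spots of a probe were averaged. Probes well above background on both arrays of a group were kept (21126 of 41174).

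All arrays were fitted with limma 3.58.1 (R 4.3.3) as 4 group means with the set as block, which left 3 residual degrees of freedom. The slide named in the headers gives the pairing, and deviations from the group means correlated within a set (r from 0.744 to 0.882). The fit was also run on simulated data, with noise drawn independently for each array. That run cannot speak to arrays that share a culture, nor to N51 against N78. Genes of the lists of regulators, further targets, paralogs and cell markers were found by accession or symbol. Every probe of the 10 genes was reported. List genes were named if they passed, and others with the lowest adjusted p or the lowest or highest values were named after these were seen. Genes nearest to Trp53, Mdm2 and Ccng1 had the smallest mean absolute difference of set-centred levels. The genes, lists and tests were chosen with earlier results of these data known. The result for 1 cell marker is not reported here.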

Additional observations from a re-analysis of the deposited data

Results flagged for a closer look

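In 5 results both array pairs of one kind differed one way and both of the other kind the opposite way. The share of all kept probes that do so was not counted, so the 5 are a description only. With FLT3/ITD, Ccng1 probe 1 had log2 differences of -0.33 and -0.47 in set 1 (N51) and of 0.76 and 1.12 in set 2 (N78), a gap of 1.34. With Cxcl12, Mdm2 probe 1 had 0.08 and 0.29 in set 1 and -1.08 and -0.66 in set 2, a gap of -1.06. With Cxcl12, Aen probe 1 had 0.87 and 2.01 in set 1 and -0.74 and -0.54 in set 2, a gap of -2.08. Aen probe 2 had 0.83 and 2.66 against -1.87 and -0.29, a gap of -2.83, although in set 1 only its FLT3/ITD reading with Cxcl12 was well above background. These differences between sets were not tested. Phlda3 differed with FLT3/ITD by -0.43 and -0.14 without Cxcl12 and by 0.31 and 0.26 with Cxcl12, an interaction of 0.57 (SE 0.33, limma adjusted p = 1).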

How the results depend on the processing

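The number of arrays, 2 per group, limits the precision, and probes near background (Aen probe 2, and Trp53inp1 probe 2 and Btg2 probe 3 in set 1) are the least precise. Of the 15 probes, with limma, 0 passed for the FLT3/ITD average, against 1 with normexp, 2 with median scaling, 1 with quantile normalization, 2 in the authors' tables, all of them Aen probes, and 0 to 3 when 1 array was left out. For FLT3/ITD with Cxcl12 it was 1 with normexp, and 0 to 1 when 1 array was left out, as for the Cxcl12 average and for Cxcl12 in FLT3/ITD cells. The other counts of passing probes stayed at 0, and without the replicate block 0 passed in any comparison. Aen probe 2, kept only through a group in which it is high, is among the probes counted for the FLT3/ITD average. It is counted there with median scaling, with quantile normalization and in the authors' tables. It is also counted without the FLT3/ITD array of set 1 (2.67) and without the FLT3/ITD array with Cxcl12 of set 2 (2.52). Filters, the block, the trend and 1 probe per gene leave an estimate as it is. Of 168 estimates under the other background, scaling and processed values, 155 kept their sign, and of 296 that leaving out 1 array moved 265 did. The probes of Trp53inp1, Gadd45a and Btg2, named for their low values, were lower with Cxcl12 in 72 of 72 such estimates. Each probe already read lower in every pair of arrays, so a sign could hardly turn and the count is no support. The least of these estimates with 1 array left out were -0.42 for Trp53inp1 probe 2 and -0.42 for Btg2 probe 2.

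For the FLT3/ITD average, signs turned with normexp for Mdm2 probe 1 (0.016), Gadd45a (0.15), Phlda3 (0.35), Btg2 probe 1 (-0.047) and Btg2 probe 3 (-0.16). They turned with median scaling for Gadd45a (0.078), Phlda3 (0.12) and Btg2 probe 2 (0.0301), and in the authors' tables for the same (0.0775, 0.12 and 0.0297). Aen probe 2 turned with normexp for FLT3/ITD with Cxcl12 (-0.24) and for the interaction (-0.61). With 1 array left out, the FLT3/ITD average ran from -0.47 to 0.15 for Mdm2 probe 2, -0.0399 to 0.58 for Ccng1 probe 1, -0.24 to 0.14 for Gadd45a and -0.15 to 0.15 for Phlda3. For Btg2 it ran from -0.10 to 0.16, -0.41 to 0.22 and -0.21 to 0.25 for probes 1 to 3. The Cxcl12 average ran from -0.18 to 0.13 for Trp53 probe 1, -0.58 to 0.0381 and -0.37 to 0.12 for the Ccng1 probes, and -0.0787 to 0.88 and -0.24 to 0.90 for the Aen probes. The cause was not tested.

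Among all kept probes, 1273 passed for the FLT3/ITD average, against 485 with normexp, 1936 with median scaling, 287 unfiltered, 707 without the trend, 0 without the block (1004 at an unadjusted p under 0.05) and 195 to 1518 with 1 array left out. For the Cxcl12 average it was 45, against 106, 222, 2, 11, 0 (429) and 4 to 289, and 96 with all 8 arrays above background, 77 with 1 probe per gene and 197 in the authors' tables. For FLT3/ITD with Cxcl12 it was 154, against 259, 307, 30, 101, 0 (503) and 19 to 321, and 98 with all 8 arrays above background and 292 in the authors' tables. Without Cxcl12 it was 74, against 197 with median scaling, 39 with quantile normalization, 5 unfiltered, 43 with all 8 arrays above background, 190 in the authors' tables, 0 without the block (290) and 14 to 90. Median scaling moved the median of all probes for FLT3/ITD from -0.02 to 0.11 on average and from -0.04 to 0.19 without Cxcl12.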
